A study of Mus musculus with 12 samples.

Results

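A set of 6 genes widely used to describe neutrophils was followed across the 12 tumour libraries of a mouse colon carcinoma study. They are Mmp9, S100a9, S100a8 and Hdc, grouped as granule and alarmin genes, and the receptors Cxcr2 and Csf3r. They are 6 of the 19921 gene symbols in each count table and were matched by symbol. They were picked with their levels in these same groups and libraries already known, so their differences between groups are given as a description, with no test. Colon26, a colon carcinoma line of BALB/c origin, was grown under the skin of the right flank of wild-type BALB/c mice, with 200000 cells injected per mouse. The cells of each digested tumour were profiled on day 10, after collagenase and DNase I treatment and a 40% Percoll step meant to deplete tumour cells and dead cells, by sequencing the 5′ end of polyadenylated transcripts.

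The 4 groups held 3 libraries each, and each library came from a separate mouse. The combination group received minP1, a peptide of HMGN1 (a nucleosome-binding protein) that stimulates immune cells, at 0.08 µg on day 9, together with anti-PD-L1 (clone 10F.9G2, which blocks a checkpoint ligand of T cells) at 200 µg on days 4 and 8. The anti-PD-L1 group received the antibody alone, the minP1 group the peptide alone, and the control group neither. All injections were intraperitoneal, and no vehicle or isotype antibody is named for the control. In the combination group the peptide stands in the sample titles only, while the treatment field names the antibody, so every value of that group rests on the titles. The sources used here give neither age nor sex of the mice.

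Neutrophils carry their proteases in granules that form in sequence as the cell matures, with the gelatinase MMP9 in granules made late. Their cytosol is rich in S100A8 and S100A9, calcium-binding proteins that pair as calprotectin and act as alarmins once released. CXCR2 is the receptor through which they follow chemokines such as CXCL1 and CXCL5, and CSF3R is the receptor of the granulocyte growth factor G-CSF. None of the 6 genes is confined to neutrophils: macrophages can make MMP9, monocytes S100A8 and S100A9, and mast cells and basophils the histidine decarboxylase that Hdc encodes.

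Libraries were shallow. Totals were 133917 to 196109 counts in the combination, 188008 to 322493 in anti-PD-L1, 276203 to 322613 in minP1 and 285753 to 473273 in control. Levels are CPM, a gene's counts per 1000000 counts of the library after TMM scaling (trimmed mean of M-values), so that 1 count was worth 2.02 CPM in the deepest library and 7.92 CPM in the shallowest. The method tags the 5′ end of a transcript, so levels were not divided by transcript length. With no molecular identifiers recorded, copies of a tag cannot be told from separate transcripts, and levels of different genes are set side by side only as tag levels. The small noncoding RNA Bc1 and the gene Lrrc17, summed, took 4.62 ± 1.95% of counts in the combination, 3.45 ± 1.04% in anti-PD-L1, 2.53 ± 1.43% in minP1 and 1.86 ± 0.488% in control (SD, n = 3 each). Since mixed cells of each tumour were measured together, fewer cells of a type and less RNA per cell cannot be told apart.

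The transcripts that define neutrophils most narrowly were at or near 0. Over the 12 libraries together, Ly6g (the lineage antigen) had 3 counts, the primary granule genes Mpo and Elane 1 each and Prtn3 2, the secondary granule genes Ltf 5, Mmp8 5 and Cd177 1, and Retnlg (a late neutrophil gene) 12. The set of 6 genes is therefore named below by its members, and no neutrophil content is read from it. By counts over the 12 libraries, Cxcr2 was the most abundant member with 610, followed by Csf3r with 163, S100a9 with 145, Mmp9 with 90, Hdc with 89 and S100a8 with 9.

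Reading a 5′ tag places the measurement next to the promoter, and the promoters of the members are not alike. The 250 bases before the RefSeq transcription start are shown for 4 genes: S100a9 and S100a8, neighbours on chromosome 3 with unlike counts, Hdc, which was higher in the combination than in control, and Cxcr2, which was lower there. Each is written 5′ to 3′ on the gene's own strand, from the RefSeq annotation of GRCm38.p6, and capitals mark motif matches.
S100a9: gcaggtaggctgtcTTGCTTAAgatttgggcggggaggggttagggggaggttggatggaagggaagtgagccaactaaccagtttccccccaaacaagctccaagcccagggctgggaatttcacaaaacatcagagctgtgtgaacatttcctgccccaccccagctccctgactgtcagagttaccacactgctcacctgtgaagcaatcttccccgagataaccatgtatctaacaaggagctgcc
S100a8: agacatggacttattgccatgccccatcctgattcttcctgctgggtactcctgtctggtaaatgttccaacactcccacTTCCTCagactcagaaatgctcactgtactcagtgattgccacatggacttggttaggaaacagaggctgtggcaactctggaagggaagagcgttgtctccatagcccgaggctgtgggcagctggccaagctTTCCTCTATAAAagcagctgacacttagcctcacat
Hdc: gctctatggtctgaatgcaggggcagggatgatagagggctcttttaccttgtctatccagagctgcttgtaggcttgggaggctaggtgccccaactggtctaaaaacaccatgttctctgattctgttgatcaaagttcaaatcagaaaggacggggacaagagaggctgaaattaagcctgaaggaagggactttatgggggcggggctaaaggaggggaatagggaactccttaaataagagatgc
Cxcr2: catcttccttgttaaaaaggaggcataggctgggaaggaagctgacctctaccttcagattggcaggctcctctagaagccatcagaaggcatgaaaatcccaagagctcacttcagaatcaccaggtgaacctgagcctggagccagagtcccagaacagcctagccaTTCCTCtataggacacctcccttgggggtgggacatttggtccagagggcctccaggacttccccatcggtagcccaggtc
These lie at chr3:90695722-90695971 (minus strand), chr3:90668821-90669070 (plus strand), chr2:126618679-126618928 (minus strand) and chr1:74153744-74153993 (plus strand), in the order printed. The 4 motifs searched were C/EBP (TTGCNNAA), PU.1 (GAGGAA) and AP-1 (TGANTCA) on both strands, and a TATA box (TATAAA) on the gene's strand. S100a9 held 1 C/EBP match, 236 bases upstream of the start. S100a8 held 2 PU.1 matches, 170 and 36 bases upstream, and a TATA match 30 bases upstream whose capitals adjoin the nearer PU.1 match. Cxcr2 held 1 PU.1 match, 81 bases upstream, and Csf3r likewise held 1, 86 bases upstream, while Hdc held none of the 4. Over 32851 mouse promoters of the same length, 9.56% held a C/EBP match, 23.3% PU.1, 6.75% AP-1 and 7.59% TATA. An entry was found for 5 of the 6 members, all but Mmp9. For S100a9 and Hdc the RefSeq start coincided with a coding transcript start of GENCODE M21, for Cxcr2 it lay 3 bases from one, and for S100a8 and Csf3r 93 and 109 bases.

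In the combination, Mmp9, S100a9, Hdc and Csf3r were higher than in control in 3 of 3 libraries, and Cxcr2 was lower in 3 of 3. S100a8 stayed at 0 to 2 counts in all 12 libraries. The combination libraries of Mmp9, S100a9 and Hdc stood above those of every other group, while those of Cxcr2 overlapped with anti-PD-L1 and those of Csf3r with minP1. Against control the receptors differed in direction, Csf3r being higher in the combination and Cxcr2 lower.

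Mmp9 (chromosome 2, 164940780 to 164955850, plus strand, GRCm38) encodes the gelatinase that cuts type IV collagen and denatured collagens. It had 27, 24 and 21 counts in the combination libraries, 3, 3 and 2 in anti-PD-L1, 3, 3 and 1 in minP1, and 1, 2 and 0 in control. As levels these were 153 ± 53.7, 11.2 ± 5.47, 7.78 ± 4.16 and 3.09 ± 3.35 CPM (SD, n = 3 each) in the same order. The combination libraries, the lowest at 111 CPM, stood clear of all the others, and the libraries of the other 3 groups overlapped. With 72 counts in the combination and 3 in control, the ratio of summed counts scaled to library totals was 53.7, with an exact 95% counting interval of 17.7 to 267. Against anti-PD-L1 it was 14.2 (6.84 to 34.2), and against minP1 18.5 (8.53 to 47.6). The intervals for anti-PD-L1 over control, 3.78 (0.908 to 22.1), and for minP1 over control, 2.91 (0.663 to 17.4), both include 1. The fitted log2 difference between the combination and control was 5.64 ± 0.60 (SE), a value that depends on the prior count because control had so few reads, and it lay between 4.90 without control replicate 3 and 6.55 without control replicate 2. Mmp9 passed the low-count filter through the combination libraries alone.

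S100a9 (chromosome 3, 90692632 to 90695721, minus strand) encodes one chain of calprotectin. It had 22, 26 and 32 counts in the combination, 11, 14 and 13 in anti-PD-L1, 2, 2 and 1 in minP1, and 3, 1 and 18 in control. Levels were 163 ± 15.2 CPM in the combination, 50.4 ± 11.2 in anti-PD-L1, 5.52 ± 2.2 in minP1 and 15.9 ± 17.9 in control. The combination was above anti-PD-L1 and anti-PD-L1 above every control and minP1 library, although control replicate 3, at 36.4 CPM, came close to the lowest anti-PD-L1 library at 40.8 CPM. The log2 difference was 3.15 ± 0.44 between the combination and control, 1.43 ± 0.49 between anti-PD-L1 and control and -1.65 ± 0.72 between minP1 and control. Control replicate 3 held 18 of the 22 control counts, and without it these differences were 4.65, 2.96 and -0.10, so that the apparent deficit in minP1 rested on that library. The same control library also held 18 of the 19 control counts of Lcn2 (lipocalin 2, a secondary granule protein) and 12 of the 14 of Cxcl5. The combination exceeded anti-PD-L1 by 1.72 ± 0.41 and minP1 by 4.80 ± 0.56 on the log2 scale.

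S100a8 (chromosome 3, 90668978 to 90670035, plus strand), which encodes the partner chain of calprotectin, was barely detected. It had 0, 1 and 1 counts in the combination, 0, 1 and 1 in anti-PD-L1, 0, 2 and 1 in minP1, and 1, 0 and 1 in control. With 2 to 3 counts in a group, all groups were at or under a floor of 3 counts and no fold is given. The pooled level was 3.95 CPM in the combination (exact Poisson 95% interval 0.478 to 14.3) and 1.76 CPM in control (0.214 to 6.37), so a difference was not detectable at this depth. In the combination libraries S100a9 had 80 counts and S100a8 had 2. How reads were assigned to the S100a8 start is not given in the sources used here, and its part in the low counts was not tested.

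Hdc (chromosome 2, 126593667 to 126619299, minus strand) encodes the enzyme that makes histamine from histidine and is set beside the granule genes by the choice of members. It had 9, 16 and 24 counts in the combination, 6, 7 and 5 in anti-PD-L1, 4, 3 and 3 in minP1, and 4, 2 and 6 in control. Levels were 96.2 ± 28.6 CPM in the combination, 24.6 ± 9.26 in anti-PD-L1, 10.9 ± 2.56 in minP1 and 9.76 ± 2.81 in control. The combination stood above anti-PD-L1, which in turn stood above all libraries of minP1 and control, and those last groups overlapped. The log2 difference was 3.22 ± 0.47 between the combination and control, 1.17 ± 0.55 between anti-PD-L1 and control and 0.10 ± 0.61 between minP1 and control. The combination exceeded anti-PD-L1 by 2.05 ± 0.44 and minP1 by 3.12 ± 0.48. Like Mmp9, Hdc passed the low-count filter through the combination libraries alone.

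Cxcr2 (chromosome 1, 74153989 to 74161246, plus strand), the chemokine receptor, ran the other way. It had 14, 19 and 24 counts in the combination, 19, 44 and 37 in anti-PD-L1, 46, 47 and 66 in minP1, and 110, 72 and 112 in control. Levels were 115 ± 10.9 CPM in the combination, 125 ± 22.1 in anti-PD-L1, 171 ± 22.6 in minP1 and 252 ± 32.9 in control. Both antibody groups lay below minP1, and minP1 below control, without overlap at either step, while the antibody groups overlapped with each other and their difference changed sign without anti-PD-L1 replicate 2. The log2 difference from control was -1.12 ± 0.26 for the combination, -0.997 ± 0.25 for anti-PD-L1 and -0.55 ± 0.24 for minP1. Between the combination and anti-PD-L1 it was -0.12 ± 0.28, and between the combination and minP1 -0.57 ± 0.27. In a fit that held the Bc1 level constant, the combination differed from control by -0.95 ± 0.34.

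Csf3r (chromosome 4, 126024550 to 126044440, plus strand), the G-CSF receptor, had 8, 15 and 19 counts in the combination, 9, 13 and 9 in anti-PD-L1, 10, 25 and 15 in minP1, and 12, 11 and 17 in control. Levels were 82.8 ± 18.8 CPM in the combination, 41.3 ± 11.8 in anti-PD-L1, 54.2 ± 25.8 in minP1 and 34.2 ± 2.54 in control. The combination was above every anti-PD-L1 and control library but overlapped with minP1, whose replicate 2 reached 83.4 CPM. The log2 difference from control was 1.30 ± 0.38 for the combination, 0.23 ± 0.40 for anti-PD-L1 and 0.66 ± 0.37 for minP1, and the last of these was 0.24 without minP1 replicate 2. Between the combination and anti-PD-L1 it was 1.07 ± 0.40, and between the combination and minP1 0.63 ± 0.37. Holding the Bc1 level constant, the combination differed from control by 1.04 ± 0.49.

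**Figure D1:**
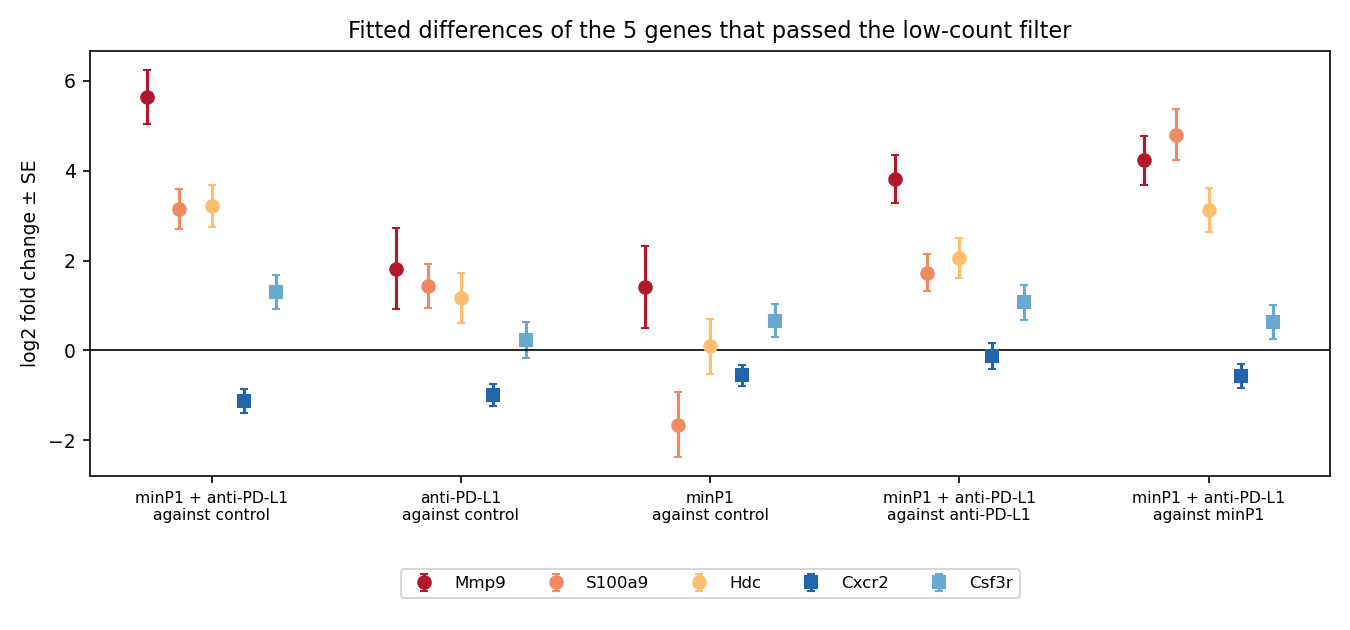
Fitted log2 fold change with its SE (y axis) of the 5 genes that passed the low-count filter, in 5 comparisons (x axis), as a description with no test. In the combination against control Mmp9 is at 5.64, S100a9 at 3.15, Hdc at 3.22 and Csf3r at 1.30, and Cxcr2 is at -1.12.

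Set against all 5443 genes that passed the filter, the members are counted as follows, where called means an adjusted p under 0.05 in edgeR's quasi-likelihood test. Since the members were chosen on these contrasts, nothing is read from the counts. Mmp9 and Hdc had to be high in the combination to enter them at all, and S100a8 entered none. For the combination against control, 4 members were called higher and 1 lower, beside 17.2% of all genes higher and 17.3% lower. The same 4 and 1 did not overlap between groups, beside 21.6% and 24.1% of all genes. For anti-PD-L1 against control no member was called higher and 1, Cxcr2, was called lower, beside 0.643% and 0.514% of genes. There S100a9 and Hdc lay without overlap above control and Cxcr2 below it, beside 11.7% and 12.1%. For minP1 against control no member was called, beside 0% of genes in either direction. That comparison had 0 calls in edgeR, with 383 genes at an unadjusted p under 0.05, and 1 in DESeq2. No member lay without overlap above control and Cxcr2 lay below it, beside 5.62% and 6.72% of genes. For the combination against anti-PD-L1, Mmp9, S100a9 and Hdc were called higher and none lower, beside 3.23% and 3.77%. Those 3 and Csf3r lay above without overlap and none below, beside 12.7% and 14.8%. For the combination against minP1 the same 3 were called higher and none lower, beside 10.1% of genes each way. They also lay above without overlap and Cxcr2 below, beside 17.4% and 19.5%.

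Some of these counts depended on single libraries or on library composition. The call of Cxcr2 in anti-PD-L1 against control was kept in 2 of the 12 fits that left out 1 library, those without minP1 replicate 2 or combination replicate 3, and was lost in the others. S100a9 in that comparison was called in 1 of the 12, the fit without control replicate 3. Csf3r in the combination against control was called in 11 of the 12, and lost without combination replicate 3. In the combination against anti-PD-L1, S100a9 was lost without anti-PD-L1 replicate 2 or 3 or combination replicate 1, and Hdc without anti-PD-L1 replicate 3 or combination replicate 3. In the fit with Bc1 as a covariate, 3 members remained called in the combination against control, those being Mmp9, S100a9 and Hdc. The part of library composition in the Cxcr2 and Csf3r differences was not tested beyond that covariate.

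Granule and alarmin genes were also set against receptors within single libraries, where depth and scaling cancel. The members were picked with these levels known, so the ratio is a description and adds no independent evidence. S100a8 gave 2 of the 203 granule and alarmin counts in the combination, and Cxcr2 294 of the 334 receptor counts in control. Csf3r, on the receptor side, was itself higher in the combination than in control. Counts of Mmp9, S100a9, S100a8 and Hdc per count of Cxcr2 and Csf3r were 2.64, 1.97 and 1.81 in the combination, 0.714, 0.439 and 0.457 in anti-PD-L1, 0.161, 0.139 and 0.0741 in minP1, and 0.0738, 0.0602 and 0.194 in control. The ratio was above 1 in all combination libraries and below 1 in all others. The anti-PD-L1 libraries also lay above every minP1 and control library, and those last groups overlapped. In summed levels the granule and alarmin genes stood at 417 ± 41.7 CPM in the combination, 88.3 ± 24.2 in anti-PD-L1, 27.4 ± 8.34 in minP1 and 30.3 ± 17.9 in control. The receptors together spanned less, at 198 ± 27.6, 166 ± 25.5, 225 ± 27.4 and 286 ± 31.0 CPM in the same order. Within the receptors, Cxcr2 counts per Csf3r count ran from 1.26 to 1.75 in the combination, 2.11 to 4.11 in anti-PD-L1, 1.88 to 4.6 in minP1 and 6.55 to 9.17 in control.

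**Figure D2:**
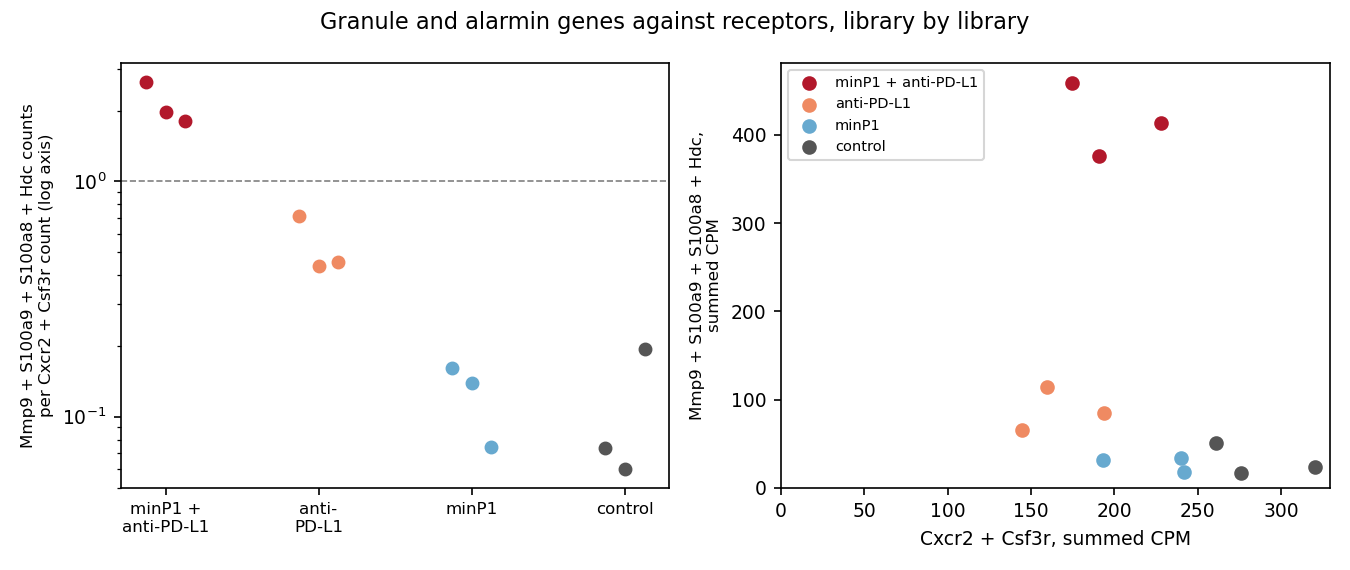
Left, counts of Mmp9, S100a9, S100a8 and Hdc per count of Cxcr2 and Csf3r in each library (log axis, dashed line at 1), by group. Right, the same 2 sums in CPM plotted against each other, 1 point per library. The combination libraries alone lie above 1, from 1.81 to 2.64.

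Across both treatments, the gain of the combination over anti-PD-L1 was set against that of minP1 over control, and the difference was 2.41 ± 1.36 for Mmp9, 3.37 ± 0.82 for S100a9 and 1.95 ± 0.77 for Hdc on the log2 scale. It was 0.43 ± 0.37 for Cxcr2 and 0.41 ± 0.55 for Csf3r. In edgeR's test of that difference 0 of 5443 genes passed, with 591 at an unadjusted p under 0.05, so no gene is shown to respond differently and the values are a description. The S100a9 value includes the step from control to minP1 that rested on control replicate 3.

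The genes whose pattern over the 12 libraries was nearest to a member were found by the root mean square difference of log2 CPM centred on each gene's mean. For Mmp9, whose own spread on that scale was 1.59, they were Cd300a (0.640), Apoe (0.658) and Fabp5 (0.673). For S100a9, with a spread of 1.54, they were Mmp12 (0.584), Arg2 (0.629) and Cxcl5 (0.673). Mmp12 stood at 369 ± 63.7 CPM in the combination, 134 ± 63.7 in anti-PD-L1, 27.8 ± 14.9 in minP1 and 16.3 ± 14.8 in control, so it had the same order of group means as S100a9 except for minP1 and control. For Hdc, with a spread of 1.07, they were Emb (0.338), Agpat9 (0.398) and Kdm6b (0.403). For Cxcr2, with a spread of 0.452, they were Mtch2 (0.184), Gm6579 (0.205) and Hspe1 (0.207). Hspe1 stood at 193 ± 16.6 CPM in the combination, 285 ± 25.0 in anti-PD-L1, 328 ± 64.1 in minP1 and 430 ± 99.6 in control. For Csf3r, with a spread of 0.520, they were Ubl3 (0.168), Haus3 (0.247) and Ccdc71l (0.271). Among the members themselves, Hdc was the 4th nearest of 5442 genes to S100a9 and the 9th nearest to Mmp9. Seen from Hdc, whose own spread is smaller, S100a9 ranked 271 and Mmp9 419. Mmp9 ranked 68 from S100a9, and S100a9 ranked 107 from Mmp9.

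Other neutrophil-associated genes were taken from 5 lists holding 59 genes, of which 48 are in the tables and 13 passed the filter. The lists were chosen with earlier results of these data known, so their shares and medians are a description. Between the combination and control, 7 of the 13 were called higher and 2 lower, beside 17.2% and 17.3% of all genes, and their median log2 difference was 0.85 beside -0.02 over all genes tested. These counts lean on the filter, since Il1r2 passed it through the combination libraries alone, and Cxcr4 and Itgb2 would not have passed without them. Of the 8 genes with at least 3 libraries above the filter's limit outside the combination, a restriction chosen after seeing the data, 4 rose and 2 fell, with a median of 0.83. In anti-PD-L1 against control 1 of the 13 rose, beside 0.643% of all genes, and in minP1 against control 0 were called by edgeR (1 at an unadjusted p under 0.05) and 0 by DESeq2. In the combination against anti-PD-L1 0 rose and 2 fell, beside 3.23% and 3.77% of all genes. In the combination against minP1 4 rose and 2 fell, beside 10.1% each way. The count of those called higher in the combination against control lay between 3 (without combination replicate 1 or 3) and 9 (without minP1 replicate 2), and was 2 of 7 tested at equal depth, 4 with the Bc1 covariate and 5 by DESeq2.

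The granule lists gave little. Of the primary granule list, 4 of 6 genes are in the tables and none passed the filter, with 1 count over the combination libraries, 2 over anti-PD-L1, 2 over minP1 and 3 over control, Prss57 (a serine protease) and Prtn3 (proteinase 3) having the most. Of the secondary granule list, 6 of 9 are in the tables and only Lcn2 was tested. It was called in no comparison, at 23.0 ± 27.3 CPM in the combination, 25.5 ± 10.6 in anti-PD-L1, 10.1 ± 9.36 in minP1 and 13 ± 20.3 in control. Of the gelatinase granule and late maturation list, 14 of 19 are in the tables and 2 were tested. Il1r2, a decoy receptor for interleukin 1, stood at 46.9 ± 9.51 CPM in the combination, 24.8 ± 5.25 in anti-PD-L1, 18.0 ± 8.32 in minP1 and 13.1 ± 8.75 in control. It had to be high in the combination to enter the test, so its log2 difference from control of 1.70 ± 0.56 is given as a description. Il1b, the cytokine, differed by 0.34 ± 0.53 (edgeR adjusted p = 0.655). The list's summed level was 219 to 246 CPM in the combination, 94.2 to 137 in anti-PD-L1, 73.4 to 146 in minP1 and 83.2 to 142 in control. Of the mean sum of 234 CPM in the combination, Il1r2 made up 46.9 CPM. The untested genes were not alike in direction. Clec4d stood at 27.9 ± 4.05 CPM in the combination and 5.59 ± 7.53 in control, on 14 and 8 counts. Retnlg had 0 counts in the combination and 7 in control, and Mmp25 had 1 and 5. Among its untested genes Slfn4 had 62 counts over the 12 libraries, 23 of them in control replicate 1, and Padi4, an enzyme of neutrophil extracellular traps, had 47. Slfn4 stood at 30.6 ± 16.1 CPM in the combination and 22.2 ± 33.3 in control, and Padi4 at 14.2 ± 7.93 and 16.0 ± 6.58 CPM.

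The receptor and adhesion list had 15 of 16 genes in the tables and 6 tested. In the combination against control 5 of these were called higher, beside 17.2% of all genes. Cxcr4 and Itgb2 are among the 5, with the limit of the filter described above. The list's summed level was 590 to 943 CPM in the combination, 408 to 589 in anti-PD-L1, 369 to 410 in minP1 and 343 to 400 in control. The adjusted p-values that follow are from edgeR, and those of Cxcr4 and Itgb2 are given as a description because of that limit. Cxcr4, the receptor that holds neutrophils in marrow, rose by 2.55 ± 0.73 (adjusted p = 0.00936), with 18 counts in the combination and 7 in control. Itgb2, the common chain of the leukocyte integrins, rose by 1.5 ± 0.41 (adjusted p = 0.00707), at 65.7 ± 25.4 CPM against 23.5 ± 3.22. Ccr1, a chemokine receptor of myeloid cells, rose by 1.19 ± 0.39 (adjusted p = 0.0214), Il17ra, the interleukin 17 receptor, by 1.02 ± 0.38 (adjusted p = 0.0391), and Csf2ra, the GM-CSF receptor, by 0.85 ± 0.28 (adjusted p = 0.0202). Itgam, the CD11b integrin chain of myeloid cells, differed by 0.80 ± 0.32 (adjusted p = 0.0561). Against minP1 the 3 genes Ccr1 (1.57 ± 0.42), Il17ra (1.37 ± 0.40) and Csf2ra (1.04 ± 0.29) also rose, and against anti-PD-L1 the difference of Itgb2 was 1.20 ± 0.42 (adjusted p = 0.0861).

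The lineage list had 9 of 9 genes in the tables and 4 tested. Cebpb, a C/EBP transcription factor of myeloid cells, rose in the combination against control by 0.96 ± 0.23 (edgeR adjusted p = 0.00256) and against minP1 by 0.73 ± 0.23 (edgeR adjusted p = 0.0265). Cebpd, a related factor, rose in anti-PD-L1 against control by 1.18 ± 0.25 (edgeR adjusted p = 0.0279), at 482 ± 137 CPM against 214 ± 17.7. S100a6 and S100a11, S100 proteins made by many cell types, fell in the combination against control by 0.81 and 1.45 on the log2 scale (SE 0.23 and 0.31, edgeR adjusted p = 0.00821 and 0.00103). They therefore ran against their family member S100a9 there, and both also fell in the combination against minP1 and against anti-PD-L1.

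**Figure D3:**
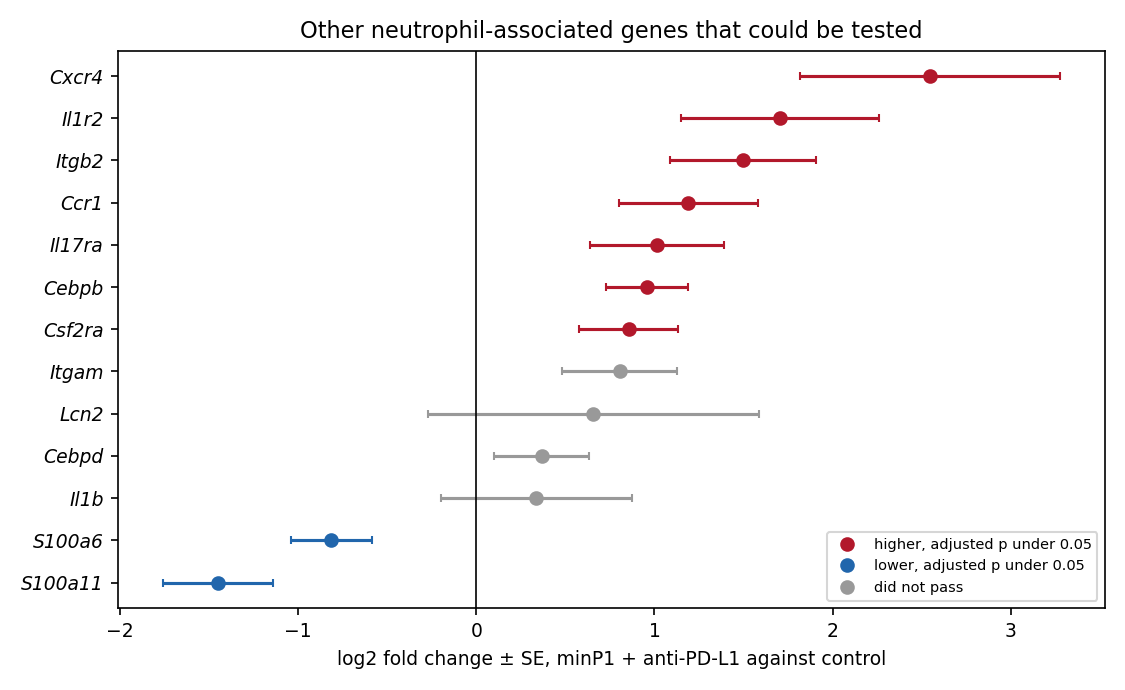
Log2 fold change with its SE (x axis) in the combination against control for the 13 neutrophil-associated list genes that were tested, other than the 6 members (y axis). Colour gives the edgeR call, with 7 higher, 2 lower (S100a6 and S100a11) and 4 that did not pass.

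Single libraries bore on these calls in the combination against control. Cebpb and S100a11 passed in all 12 fits that left out 1 library. Il17ra was lost in 5 of them (adjusted p up to 0.159), without control replicate 1 or 3, minP1 replicate 1 or combination replicate 1 or 3. Csf2ra was lost in 4 (up to 0.113), without control replicate 2 or 3 or combination replicate 1 or 3. Ccr1 was lost (up to 0.0902) without control replicate 2 or combination replicate 1 or 2. Cxcr4 (0.0888) and Itgb2 (0.0756) were lost without combination replicate 3, and S100a6 (0.0516) without combination replicate 1. The Cebpd call in anti-PD-L1 was lost without control replicate 2 or anti-PD-L1 replicate 2 or 3 (up to 0.101), all in edgeR. Of the calls against minP1, Ccr1 was lost without minP1 replicate 1 or combination replicate 1 (up to 0.0567), Csf2ra without minP1 replicate 2 or combination replicate 3 (up to 0.0727), and Il17ra without minP1 replicate 3 or combination replicate 1 or 3 (up to 0.0929). Cebpb was lost there without minP1 replicate 1 or 3, anti-PD-L1 replicate 2 or combination replicate 1 or 3 (up to 0.135), S100a6 without minP1 replicate 1 or 3 or combination replicate 1 (up to 0.134), and S100a11 without minP1 replicate 1 or combination replicate 1 or 2 (up to 0.0963). Of the calls against anti-PD-L1, S100a6 was lost without any 1 of the 6 libraries compared (up to 0.187), and S100a11 without anti-PD-L1 replicate 2 or 3 or combination replicate 1 or 2 (up to 0.128).

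Library composition and settings bore on them too, over the 16 lists together. Of the 24 list genes called in the combination against control, 8 were lost when the Bc1 level was a covariate. They were S100a11 (log2 difference -0.97 ± 0.34, adjusted p = 0.0506), Itgb2 (1.52 ± 0.55, 0.0567), Il17ra (1.30 ± 0.50, 0.074), Thy1, Siglech, Mrc1, Col1a2 and the descriptive Il1r2, all in edgeR. With that covariate the calls of Cebpb, S100a11, F13a1 and Timp3 against minP1 were lost as well (edgeR adjusted p = 0.0676, 0.133, 0.0933 and 0.23), and so was that of Cxcl1 in anti-PD-L1 against control (0.156). Without the low-count filter Ccr1, Csf2ra and Il17ra were lost against control (edgeR adjusted p up to 0.173) and Cebpb, Csf2ra and Il17ra against minP1 (up to 0.222). By DESeq2 the adjusted p of Csf2ra and Il17ra against control was 0.0542 and 0.094, and that of Timp3 against minP1 0.0593. At equal depth 9 of the 24 could not be tested, and Ccr1 was lost (edgeR adjusted p = 0.0589), as was Timp2 against anti-PD-L1 (0.0538) and Timp3 against minP1 (0.0568). A further fit left out minP1 replicate 2 and anti-PD-L1 replicate 1, the highest of their groups in Bc1. There Cxcl1 in anti-PD-L1 against control (0.0538) and Csf2ra against minP1 (0.0617) were lost.

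Ligands of the receptors were measured in a list of 9 genes, 8 of them in the tables and 3 tested. Cxcl1, a CXCR2 ligand, rose in the combination against control by 2.29 ± 0.30 (edgeR adjusted p = 7.6e-06), at 654 ± 250 CPM in the combination, 313 ± 73.9 in anti-PD-L1, 144 ± 43.3 in minP1 and 131 ± 33.7 in control. It also rose against minP1 by 2.16 ± 0.30 (edgeR adjusted p = 4.4e-05). It rose in anti-PD-L1 against control by 1.24 ± 0.30 (edgeR adjusted p = 0.0416), a call lost without any one of control replicate 1 or 2 or anti-PD-L1 replicate 1, 2 or 3 (up to 0.171). Cxcl5, another CXCR2 ligand, passed the filter through the combination libraries alone and is described without a test. It stood at 97.0 ± 52.8 CPM in the combination, 21.7 ± 10.7 in anti-PD-L1, 7.66 ± 2.36 in minP1 and 10.3 ± 12.5 in control, and its combination libraries lay above all others. Cxcl2, one more ligand of the same receptor, differed between the combination and control by -0.53 ± 0.38 (edgeR adjusted p = 0.282). Against anti-PD-L1 Cxcl1 rose by 1.05 ± 0.29 (edgeR adjusted p = 0.0284), a call lost without anti-PD-L1 replicate 2 or 3 or combination replicate 1 (up to 0.221).

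Partners of the granule and alarmin products were followed in 3 further lists. Of 6 alarmin receptor genes, 5 are in the tables and 3 were tested. Cd36, a scavenger receptor, rose in the combination against control by 2.67 ± 0.41 (edgeR adjusted p = 4.1e-05), against anti-PD-L1 by 2.08 ± 0.42 and against minP1 by 2.00 ± 0.40. It would not have passed the filter without the combination libraries, so these values are a description. Tlr4, the receptor of calprotectin on myeloid cells, had 46 counts over the 12 libraries and was not tested. Of 8 genes for inhibitors and surface partners of gelatinases, 7 are in the tables and 5 were tested. Timp2, a metalloproteinase inhibitor, fell in the combination against control by 2.36 on the log2 scale (SE 0.43, edgeR adjusted p = 0.000204), at 46.7 ± 19.7 CPM against 249 ± 76.8. It also fell against minP1 by 2.37 and against anti-PD-L1 by 1.60, and the last call was lost without anti-PD-L1 replicate 2 or 3 or combination replicate 1 or 2 (edgeR adjusted p up to 0.174). Cd44, a surface receptor that binds MMP9, rose in the combination against control by 1.97 ± 0.23 (edgeR adjusted p = 2.6e-06), against anti-PD-L1 by 1.14 ± 0.23 and against minP1 by 1.26 ± 0.23. Timp1, the inhibitor that pairs with MMP9, differed by 0.24 ± 0.25 between the combination and control (edgeR adjusted p = 0.483). Timp3, another inhibitor, fell against minP1 alone by 0.89 (SE 0.31, edgeR adjusted p = 0.0425), a call lost without minP1 replicate 3 or any combination library (up to 0.335). Of 6 histamine pathway genes, 3 are in the tables and none was tested. The histamine receptor Hrh2 had 0 counts in the combination, 1 in anti-PD-L1, 2 in minP1 and 9, 7 and 0 in control.

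Some markers of other cell types rose in the combination as members did and others did not, and their part in the members' differences was not tested. Of 10 macrophage genes, all in the tables, the summed level was 1853 to 4111 CPM in the combination, 854 to 1475 in anti-PD-L1, 763 to 1083 in minP1 and 896 to 1084 in control. Of its 6 tested genes 4 rose in the combination against control, beside 17.2% of all genes. Among them were the lipid carrier Apoe (2.87 ± 0.33), the complement gene C1qc (1.30 ± 0.27) and the mannose receptor Mrc1 (1.17 ± 0.29), these 3 with an edgeR adjusted p of at most 0.00351. With the Bc1 covariate the Mrc1 difference was 0.81 ± 0.36 (edgeR adjusted p = 0.123). C1qb of the same list was not called and had a lower mean in the combination, at 53.6 ± 36.4 CPM against 68.3 ± 9.59 in control. The untested Mertk had 3 counts in the combination and 18 in control. Apoe alone averaged 1175 CPM in the combination, where the list's mean sum was 2832 CPM. Of 7 monocyte genes the sum was 467 to 943 CPM in the combination, 430 to 449 in anti-PD-L1, 256 to 450 in minP1 and 315 to 354 in control. Plac8 (3.47 ± 0.59) and the coagulation factor gene F10 (2.70 ± 0.45) rose in the combination against control among 6 tested. Of all genes 17.2% were called higher there. F10 alone averaged 233 CPM in the combination, where the list's mean sum was 704 CPM. Ccr2, the gene of that list with the most counts, was not called. It stood at 122 ± 20.9 CPM in the combination, 91.7 ± 11.9 in anti-PD-L1, 105 ± 28.1 in minP1 and 138 ± 12.2 in control. Plac8 passed the filter only with the combination libraries and is given as a description. F13a1, a clotting factor chain, rose against minP1 (1.62 ± 0.43), a call lost without minP1 replicate 1 or combination replicate 1 (edgeR adjusted p up to 0.126). Of 11 mast cell and basophil genes, which bear on Hdc, 8 are in the tables, and the sum was 89.8 to 149 CPM in the combination, 81.6 to 91.1 in anti-PD-L1, 50.7 to 79.4 in minP1 and 22.2 to 42.0 in control. Only Gata2, a transcription factor of blood progenitors and mast cells, was tested. It rose in the combination against control by 1.43 ± 0.48 (edgeR adjusted p = 0.0231), with overlapping groups, and the call was lost without control replicate 3 or combination replicate 3 (up to 0.354). The mast cell proteases Mcpt4 and Cpa3 had 42 and 1 counts over the 12 libraries and were not tested. Mcpt4 had 6, 5 and 5 counts in the combination, 6, 5 and 5 in anti-PD-L1, 5, 2 and 0 in minP1, and 0, 1 and 2 in control. As levels these were 34.0 ± 11.7, 22.3 ± 10.3, 7.98 ± 8.71 and 2.46 ± 2.16 CPM. Its libraries in both antibody groups lay above every control library.

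Lymphoid, dendritic, epithelial and stromal lists held few genes that could be tested. Of 8 T cell genes, 7 are in the tables and Thy1, a surface protein of T cells and stroma, was the tested one. It rose in the combination against control by 1.69 ± 0.38 (edgeR adjusted p = 0.00143), which became 1.08 ± 0.47 (edgeR adjusted p = 0.118) with the Bc1 covariate. The list summed to 143 to 230 CPM in the combination, 74.9 to 142 in anti-PD-L1, 65.6 to 96.7 in minP1 and 29.9 to 50.5 in control. The anti-PD-L1 and minP1 libraries thus also lay above every control library. Thy1 alone averaged 98.9 CPM in the combination, where the list's mean sum was 175 CPM. Of 8 dendritic cell genes, 7 are in the tables, and the sum was 78.6 to 90.2 CPM in the combination, 53.4 to 120 in anti-PD-L1, 38.8 to 110 in minP1 and 21 to 66.7 in control. Siglech, a marker of plasmacytoid cells and the tested one, rose by 2.33 ± 0.67 in the combination against control (edgeR adjusted p = 0.00989), which became 1.24 ± 0.77 (edgeR adjusted p = 0.29) with the Bc1 covariate. The integrin gene Itgax, the transcription factor gene Zbtb46, the chemokine receptor gene Ccr7 and the lectin gene Cd209a had 0 counts in the combination. They had 6, 7, 5 and 3 counts in control, in that order. Totals summed to 506616 counts in the combination and 1134230 in control. For 0 counts in the combination the exact Poisson interval reached 7.28 CPM, above these genes' pooled control levels of 2.64 to 6.17 CPM. None of them alone is shown to fall by these counts. The untested Flt3 and Xcr1 of that list had higher means in the combination, on 5 and 6 counts. Flt3 stood at 9.15 ± 8.52 CPM against 6.87 ± 0.925 in control, and Xcr1 at 12.5 ± 5.93 against 9.83 ± 8.63. Of 6 epithelial and carcinoma genes, 4 are in the tables, none was tested, and the most counts over the 12 libraries were 16 for Cdh1 (E-cadherin) and 9 for Krt18 (a keratin). Of 6 fibroblast genes, all in the tables, 3 were tested and Col1a2, a type I collagen chain, fell in the combination against control by 0.77 (SE 0.21, edgeR adjusted p = 0.00764), a call lost with the Bc1 covariate (0.0854). Another collagen gene of that list, Col1a1, differed by 0.58 ± 0.30 (edgeR adjusted p = 0.139).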

How the data were processed

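The authors deposited 1 table of whole-number counts per gene symbol for each of 12 libraries, with no normalization. The submitters' processing notes name the build mm10 and the tools Bowtie2 2.2.5, DESeq2 and R 3.6.1, without their roles. How reads were counted, on which annotation and strand, and what was done with multiply matching reads is not given in the sources used here. No molecular identifiers are recorded, so counting intervals and the floor of 3 counts cover counting error only.

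Groups were taken from the sample titles. Genes above about 10 counts at median depth (34.8 CPM) in at least 3 libraries were kept with edgeR's filterByExpr. The 5443 genes kept held 89.8% to 93.6% of a library's counts, and the other 14478 stayed untested. After TMM scaling, genes were tested with edgeR 4.0.16 (R 4.3.3) by its quasi-likelihood test, 1 mean per group over all 12 libraries, with Benjamini-Hochberg adjustment over 5443 genes in each of 5 comparisons and a threshold of 0.05. The prior count was 0.125 for log2 fold changes and 2 for likeness between genes. Common dispersion was 0.0506 (biological CV 22.5%). DESeq2 1.42.0 was an alternative. The code was tested on simulated data. Replicates of every group differed beyond sampling noise (chi-square per degree of freedom 1.68 to 6.07).

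The 6 members and the 16 gene lists (144 genes, 120 of them in the tables) were chosen with earlier results of these data known. The other 24 list genes were not analysed here, and 1 list gene's result is not reported here. Named genes were the members, list genes that passed in any comparison or else up to 2 with the most counts, the 3 nearest genes to each tested member, and Bc1. Itgam, Il1b, Cxcl2, Timp1, Lcn2, Tlr4, Col1a1, Slfn4, Padi4, Clec4d, Mmp25, Itgax, Zbtb46, Ccr7, Cd209a, Flt3, Xcr1, C1qb, Mertk, Ccr2 and the narrow neutrophil markers outside that rule were chosen after their values were seen. Gene positions are from GENCODE M21 (GRCm38), where no member overlaps another gene, and promoters from RefSeq.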

Additional observations from a re-analysis of the deposited data

Results flagged for a closer look

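List genes Cebpd and Mrc1 moved in opposite directions under the peptide without and with the antibody, in every library of both contrasts. Cebpd differed by 0.47 on the log2 scale between minP1 and control, and by -0.82 between the combination and anti-PD-L1. The difference of those differences was -1.28 ± 0.36 (SE, edgeR adjusted p = 0.23). Mrc1, the mannose receptor of macrophages, differed by -0.88 between minP1 and control and by 1.39 between the combination and anti-PD-L1. The difference of those was 2.27 ± 0.43 (SE, edgeR adjusted p = 0.0619). In edgeR's test of that difference 0 of 5443 genes passed (591 at an unadjusted p under 0.05), so neither gene is shown to respond differently.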

How the results depend on the processing

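Over 465 refits of the members' fold changes (7 alternatives and 12 left-out libraries, with Hdc and Csf3r not tested at equal depth), 445 moved by less than the SD between replicates, 20 moved further and no called member changed sign. The count of members called was 0 in minP1 against control throughout. In anti-PD-L1 against control it was 1, and 0 to 1 with 1 library left out. It was 0 without the filter, with the Bc1 covariate, at equal depth, and without 2 libraries together. These were replicate 2 of minP1 and replicate 1 of anti-PD-L1, the highest of their groups in Bc1 with Lrrc17 (4.17% and 4.42% of counts). Combination replicate 3, the lowest of its group at 2.49%, was kept. In the combination against control the count of members called was 5, 3 with the Bc1 covariate and at equal depth, and 4 without combination replicate 3. Against anti-PD-L1 it was 3, and 1 to 3 with 1 library left out. There Mmp9 and S100a9 were called in 7 of the 7 alternatives. Hdc was called in 5 of the 6 that tested it, and was not tested at equal depth. Genes called in minP1 against control numbered 0, but 51 without the filter, 2 with the replicate block, 1 with Bc1, 1 by DESeq2 and 0 to 5 with 1 library left out. In anti-PD-L1 against control 63 became 167 without the filter, 187 with the replicate block, 35 with Bc1, 23 without both libraries, and 1 (without control replicate 2) to 171 (without minP1 replicate 2). In the combination against control 1875 became 787 with Bc1 and 1096 at equal depth. Against anti-PD-L1 381 became 613 without both libraries and 94 to 499 with 1 left out, and against minP1 1100 became 619 with Bc1, 1398 without both libraries and 601 to 1352. Causes were not tested, beyond fewer reads at equal depth. Replicate numbers were not used as pairs in the main fit. Libraries with the same number correlated weakly (18 pairs, r -0.14 to 0.21, 9 over 0.1), and 7 of 12 libraries correlated best with their own number. Whether the numbers pair the samples was not settled by these values.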
